A study of Mus musculus with 7 samples.

Results

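Cdk1, Ccna2, Ccnb1, Ccnb2, Plk1, Aurka, Aurkb, Cdc20, Foxm1 and Ube2c encode the cyclins, kinases, transcription factor and ubiquitin ligase partners that carry a cell into and out of mitosis. They were measured in granule neuron precursors of the mouse cerebellum, sorted into Nestin-positive and Nestin-negative cells. The members were all probe sets that the platform annotation gives to exactly 1 of these 10 genes, which were 17 of the 45037 probe sets on the array. They stood for 9 genes, and Ccnb1 is not analysed here because no probe set was assigned to it alone. On all 7 arrays, 16 of these probe sets had a signal no lower than the array median. The remaining one, a Foxm1 probe set, was dimmer than that on every array. In the fit over 11089 genes, each of the 9 genes was represented by its brightest probe set.

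All cells came from mice of the genotype Math1-Cre/Ptc-loxp/Nestin-CFP, so both groups lack the Hedgehog receptor gene Ptch1 wherever Math1-Cre was active, and no group with intact Ptch1 was measured. Math1-Cre acts in the granule neuron lineage, and Nestin-CFP is a fluorescent reporter driven by Nestin regulatory sequence, which was used to sort the cells. The Nestin-positive group had 4 arrays (replicates 1, 3, 4 and 5) and the Nestin-negative group had 3 (replicates 1, 4 and 5), 1 array per RNA sample. The sample labels give postnatal day 7 and the tissue type medulloblastoma, whereas the series text gives postnatal day 4. Cells were neither cultured nor treated before RNA extraction. No label ties the samples to separate animals, so p-values measure the spread between these samples, which may be technical, and the number of arrays limits their precision.

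Entry into mitosis depends on the kinase Cdk1, which is active only when bound to a cyclin of the A or B type. Plk1 and Aurora A help to switch Cdk1 on, the transcription factor Foxm1 drives the genes of the G2 and M phases, and the anaphase-promoting complex or cyclosome (APC/C) ends mitosis by marking cyclins for destruction. In the developing cerebellum, Hedgehog signalling keeps granule neuron precursors dividing, and the genes of this group are high in cells that cycle and low in cells that have left the cycle.

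Promoters of such genes are known for a cell cycle genes homology region (CHR, letters TTTGAA), which binds the MuvB complexes, and for CCAAT boxes, which bind NF-Y. The sequences shown here let a reader see these elements in the genes whose signals follow. RefSeq promoter windows (GRCm38.p6, 250 bases before to 50 after the annotated start) were found for 7 of the 10 genes. The start used for Aurka lay inside the annotated gene and not at its 5' end, so its positions hold for that start only. Capitals mark matches to TTTGAA or CCAAT on either strand, so that a match on the reverse strand reads TTCAAA or ATTGG.
Cdk1, last 120 bases before the start, chr10:69352913-69353032, minus strand: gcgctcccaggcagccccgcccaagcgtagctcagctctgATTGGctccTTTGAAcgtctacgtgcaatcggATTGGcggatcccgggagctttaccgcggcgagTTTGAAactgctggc
Ccnb2, last 120 bases before the start, chr9:70421555-70421674, minus strand: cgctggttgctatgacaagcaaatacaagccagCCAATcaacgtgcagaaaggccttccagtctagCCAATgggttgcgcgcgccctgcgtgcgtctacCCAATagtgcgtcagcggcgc
Ccnb2, 30 bases around the CHR, chr9:70421533-70421562, minus strand: agcggcgcggtaTTTGAAtcgcggaccggg
Plk1, 30 bases around the CHR, chr7:122159453-122159482, plus strand: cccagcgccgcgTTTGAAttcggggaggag
Aurka, last 120 bases before the start, chr2:172370571-172370690, minus strand: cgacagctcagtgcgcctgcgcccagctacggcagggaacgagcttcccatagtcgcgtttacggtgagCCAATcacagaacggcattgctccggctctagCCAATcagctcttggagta
Aurka, 30 bases around the CHR, chr2:172370521-172370550, minus strand: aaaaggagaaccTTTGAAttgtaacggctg
Cdc20, last 120 bases before the start, chr4:118437344-118437463, minus strand: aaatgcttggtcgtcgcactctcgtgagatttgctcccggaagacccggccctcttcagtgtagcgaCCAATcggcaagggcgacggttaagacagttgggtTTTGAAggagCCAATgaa
Ube2c, last 120 bases before the start, chr2:164769809-164769928, plus strand: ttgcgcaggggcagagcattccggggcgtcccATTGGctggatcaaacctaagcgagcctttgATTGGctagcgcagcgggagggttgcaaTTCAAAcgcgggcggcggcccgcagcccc
The CHR letters stood in 6 of the 7 windows and CCAAT in all 7. Among 32851 windows of the same length in the table, 17.9% held TTTGAA, 37.4% held CCAAT and 6.95% held both. The match began within 60 bases of the annotated start in those 6 windows, as it did in 5.5% of all windows. Ccnb1, whose RNA was not measured, had 2 CCAAT matches and no TTTGAA in this window. Some neighbouring CCAAT matches began at similar distances, which were 32 bases in Cdk1, Ccnb1 and Aurka, 33 bases in Ccnb2 (3 matches in a row) and 31 bases in Ube2c. Cdk1 had a further distance of 128 bases, and Ube2c had 4 others, of 42, 3, 28 and 67 bases. A distance of 31 to 33 bases occurred in 5 of the 7 windows and in 0.97% of all windows, a measure chosen after these positions were seen. In Cdc20 the matches began 45 bases apart, and Plk1 had a single match. A match is a description of letters and not evidence of binding in these cells.

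**Figure D1:**
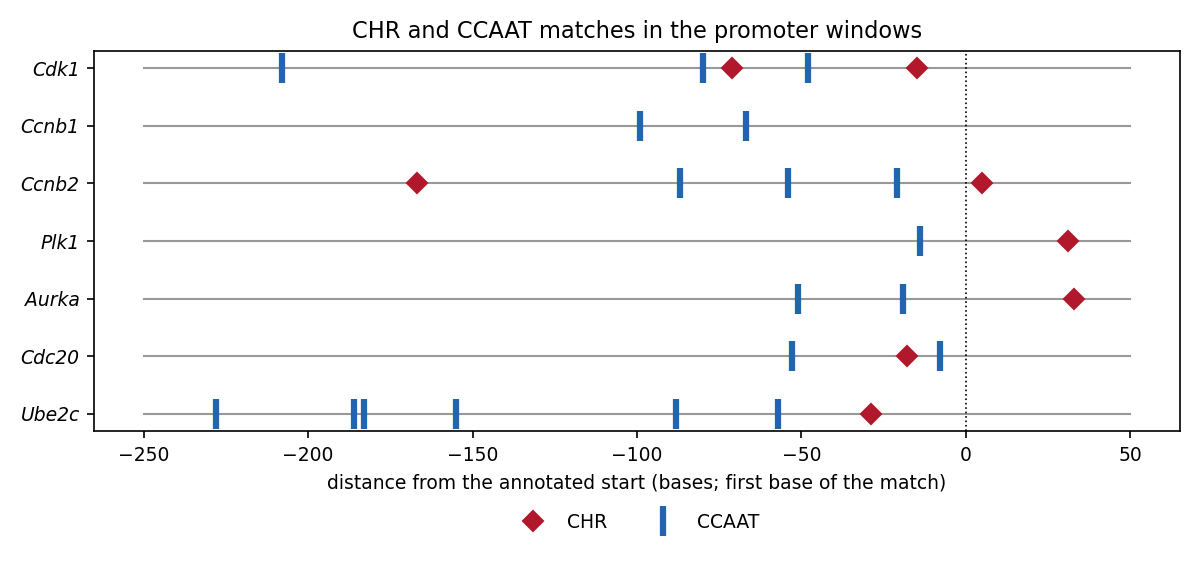
Positions of TTTGAA (CHR, diamonds) and CCAAT (bars) matches on either strand in the promoter windows of 7 genes; the x axis is the distance in bases from the annotated start (dotted line). CHR matches lie near the start in 6 genes, and CCAAT pairs 31 to 33 bases apart are seen in Cdk1, Ccnb1, Ccnb2, Aurka and Ube2c.

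All 9 measured genes had higher mean log2 signal in Nestin-positive cells, with a median log2 change of 0.31 (1.24-fold for Ccnb2, the gene at the median) and a range of 0.12 to 0.46. Over all genes the median was -0.03, and 45.5% of genes had a positive log2 change. None of the 9 passed limma at an adjusted p under 0.05 with all 7 arrays, where 0.171% of all genes were called higher and 0.577% lower. At an unadjusted p under 0.05, 4 of the 9 were higher, against 5.33% of all genes. Samples of the same number (1, 4 and 5) were taken as pairs. Fitted with the replicate number as a block, which leaves Nestin-positive replicate 3 without weight, 7 of the 9 rose (median log2 change 0.37) and 0 fell. In that fit 3.6% of all genes were called higher and 6.52% lower. With the number as a random block over all 7 arrays, 4 rose, Cdk1, Ccna2, Aurka and Aurkb, against 2.62% of all genes. Without the pair of replicate 1, 2 of the 9 rose in the blocked fit, Cdk1 and Aurkb, against 1.64% of all genes. Without the pair of replicate 4 it was 5 (5.11% of all genes), and without that of replicate 5 also 5 (2.8%). Bulk RNA cannot tell a larger share of dividing cells from more of these transcripts per dividing cell.

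**Figure D2:**
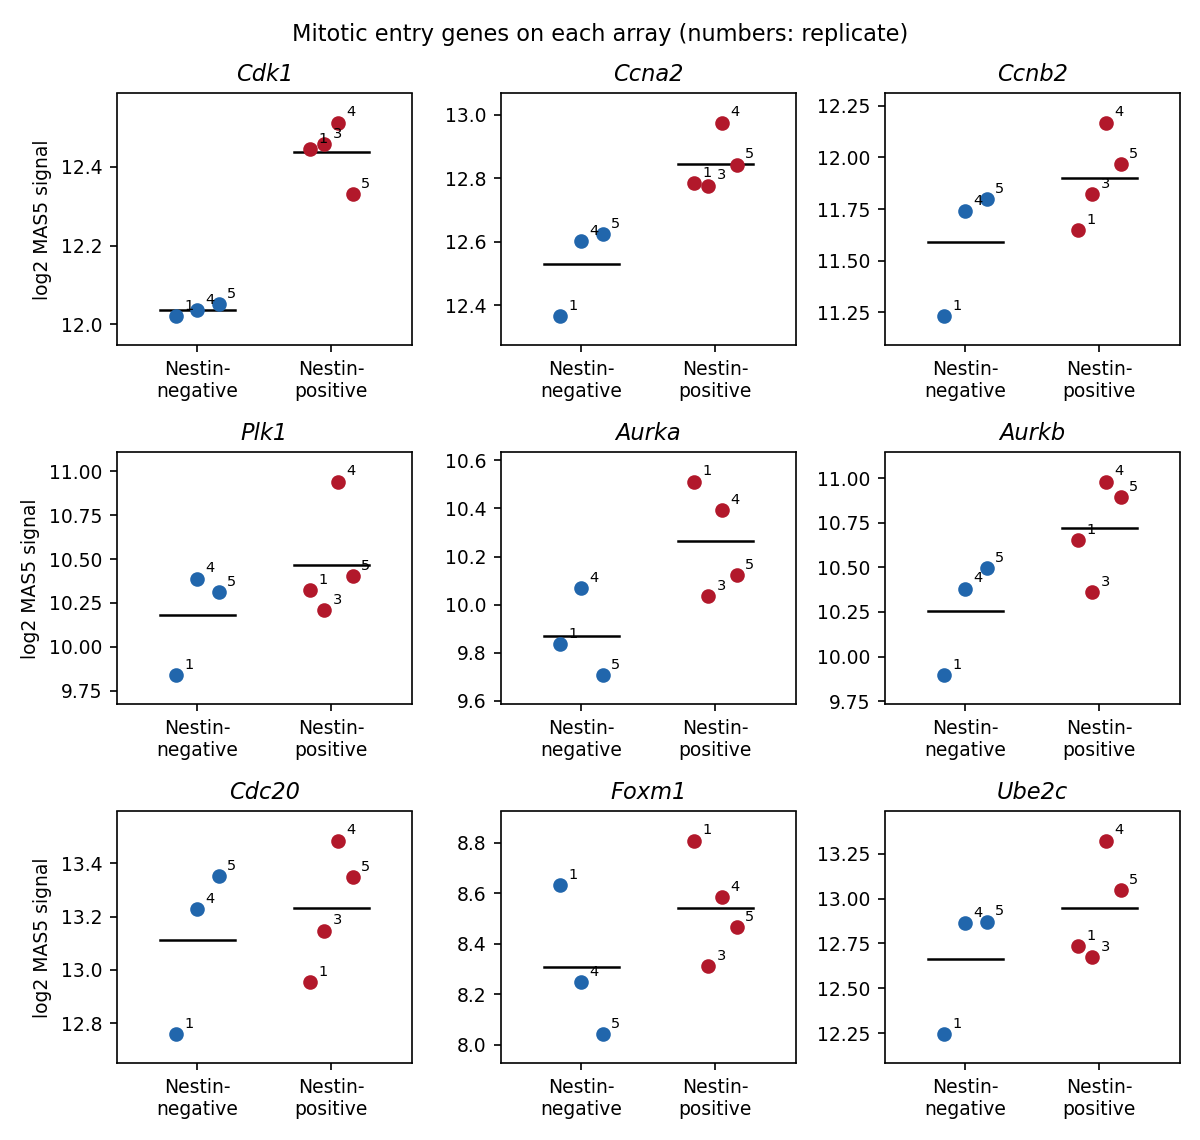
Log2 MAS5 signal of the brightest probe set of each gene (y axes differ between panels and do not start at 0); each point is 1 array with its replicate number, and bars are group means. The groups do not overlap for Cdk1 and Ccna2, and Nestin-negative replicate 1 is the lowest array in 7 of the 9 panels.

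Cdk1, the kinase that triggers mitosis, read 5581, 5624, 5845 and 5155 on Nestin-positive replicates 1, 3, 4 and 5, and 4156, 4202 and 4245 on Nestin-negative replicates 1, 4 and 5. No overlap was seen, and the Nestin-negative arrays lay close together (4201 ± 44.7, SD, n = 3). Cdk1 differed by 0.40 ± 0.10 in log2 signal (SE), 1.32-fold with a 95% interval of 1.14 to 1.53 (limma, adjusted p = 0.0935). With the replicate block it was 0.39 ± 0.10 (adjusted p = 0.0125). Exact permutation (two-sided, 35 possible splits) gave p = 0.0286 for Cdk1, the smallest value this design allows. Cdk1 moved least of all members when arrays were left out: its log2 change stayed between 0.38 and 0.44.

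Ccna2 encodes cyclin A2, the partner of Cdk2 in S phase and of Cdk1 in G2. Its brighter probe set read 7060, 7017, 8054 and 7346 on Nestin-positive replicates 1, 3, 4 and 5, and 5279, 6214 and 6314 on Nestin-negative replicates 1, 4 and 5. Again there was no overlap, and Ccna2 differed by 0.31 ± 0.11 in log2 signal (SE), 1.24-fold (limma, adjusted p = 0.215; exact permutation p = 0.0286). In the blocked fit Ccna2 rose by 0.34 ± 0.10 (adjusted p = 0.0321), a call lost without the pair of replicate 1 (adjusted p = 0.132) or of replicate 5 (adjusted p = 0.121). With a common array median the blocked call was lost as well. A second, dimmer probe set of Ccna2 had a similar log2 change of 0.29, but its lowest Nestin-positive array (2962) lay below 2 of the 3 Nestin-negative arrays (2631, 3199 and 2966). In the blocked fit over probe sets the adjusted p was 0.0629 for the brighter and 0.0428 for the dimmer probe set. Cdk1 and Ccna2 were thus 2 of 9 genes whose groups did not overlap with Nestin-positive cells higher, where 5.87% of all genes showed this. None was non-overlapping in the other direction (9.11% of all genes). Among the 16 kept member probe sets, 3 did not overlap with Nestin-positive cells higher (5.12% of 20162), and 6 rose in the blocked fit over probe sets (1.53%).

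Ccnb2 encodes cyclin B2, an activating partner of Cdk1 at the onset of mitosis. It read 3213, 3617, 4604 and 4008 on Nestin-positive replicates 1, 3, 4 and 5, and 2405, 3422 and 3562 on Nestin-negative replicates 1, 4 and 5. Nestin-positive replicate 1 lay below Nestin-negative replicates 4 and 5, so the groups overlapped, although in each of the 3 pairs the Nestin-positive array was higher. The difference over all arrays was 0.31 ± 0.17 (SE; adjusted p = 0.458), and with the replicate block it was 0.34 ± 0.10 (adjusted p = 0.0375), which did not pass without any one of the pairs (adjusted p = 0.0598 to 0.174). Leaving out Nestin-negative replicate 1 brought the unblocked log2 change to 0.13.

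Plk1, the polo-like kinase that activates Cdk1 and matures centrosomes, read 1279, 1184, 1967 and 1353 on Nestin-positive replicates 1, 3, 4 and 5, and 916, 1341 and 1273 on Nestin-negative replicates 1, 4 and 5. Nestin-positive replicate 4 stood above all other arrays, and the groups overlapped. The difference was 0.29 ± 0.20 (SE) on the log2 scale (limma, adjusted p = 0.573). In the blocked fit Plk1 rose by 0.37 ± 0.12 (adjusted p = 0.0429), but the pair of replicate 5 differed by only 0.09. That call was lost without the pair of replicate 1 (adjusted p = 0.214) or 4 (adjusted p = 0.141). It was also lost with the mean of probe sets (adjusted p = 0.0522), although Plk1 has a single probe set and only other genes changed there. Quantile normalization and a common array median, each with the block, lost the call too, as did the random block (adjusted p = 0.173). In the blocked fit over probe sets the adjusted p was 0.103. The unblocked log2 change of Plk1 was 0.12 without Nestin-negative replicate 1 and 0.13 without Nestin-positive replicate 4.

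With all pairs and the brightest probe sets, the Aurora kinases had the largest blocked changes among the members. Aurka encodes Aurora A, which acts at centrosomes and the spindle poles, and read 1460, 1048, 1345 and 1114 on Nestin-positive replicates 1, 3, 4 and 5. On Nestin-negative replicates 1, 4 and 5 it read 914, 1074 and 836. A single Nestin-negative array, replicate 4, lay above the lowest Nestin-positive array. The difference was 0.39 ± 0.15 (SE), or 1.31-fold (limma, adjusted p = 0.278), and 0.47 ± 0.11 with the replicate block (adjusted p = 0.0096). The blocked call was lost without the pair of replicate 1 (0.37, adjusted p = 0.139) and with the mean of probe sets (0.28, adjusted p = 0.266). The dimmer Aurka probe set, with signals of 78.5 to 193, had a log2 change of 0.02 ± 0.35 (SE) and overlapping groups. That error is too wide to tell it from the brighter one.

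Aurkb encodes Aurora B, the kinase of the chromosomal passenger complex that corrects kinetochore attachments. Its brighter probe set read 1608, 1316, 2022 and 1901 on Nestin-positive replicates 1, 3, 4 and 5, and 952, 1333 and 1446 on Nestin-negative replicates 1, 4 and 5. Nestin-positive replicate 3, which has no same-numbered partner, lay within the Nestin-negative range. The difference was 0.46 ± 0.19 (SE), or 1.38-fold with a 95% interval of 1.03 to 1.85 (limma, adjusted p = 0.301). With the replicate block Aurkb rose by 0.58 ± 0.11, or 1.5-fold (adjusted p = 0.0013), and it still rose without each pair in turn (highest adjusted p = 0.0101). Without Nestin-negative replicate 1 the unblocked log2 change of Aurkb was 0.28. The second Aurkb probe set read 1304, 1272, 1517 and 1508 against 773, 1005 and 1105, so there the groups did not overlap. In the fit over 20162 probe sets it differed by 0.55 ± 0.15 (SE; adjusted p = 0.204), and by 0.60 ± 0.11 with the replicate block (adjusted p = 0.0081). Both Aurkb probe sets are annotated to the same gene and were read on the same arrays, so they are not independent measurements.

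Foxm1, the transcription factor of G2 and M phase genes, was the dimmest member. Its brightest probe set read 448, 318, 384 and 353 on Nestin-positive replicates 1, 3, 4 and 5, and 397, 304 and 264 on Nestin-negative replicates 1, 4 and 5. Nestin-negative replicate 1, the lowest array for 7 other members, was here the second highest of all arrays. The difference was 0.23 ± 0.19 (SE; adjusted p = 0.632), and 0.31 ± 0.14 with the replicate block, where it did not pass either (adjusted p = 0.206). Unblocked, leaving out Nestin-negative replicate 5 gave 0.10 and leaving out replicate 1 of that group gave 0.40. The other kept probe sets of Foxm1 had log2 changes of 0.11 and 0.13. One more probe set, annotated to Foxm1 together with other genes, was not used.

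Cdc20, the activator that brings substrates to the APC/C in mitosis, had the smallest difference over all arrays when each gene was read from its brightest probe set. With the mean of probe sets Foxm1 was lower (0.16, against 0.21 for Cdc20). The brightest Cdc20 probe set read 7941, 9075, 11475 and 10425 on Nestin-positive replicates 1, 3, 4 and 5, and 6931, 9600 and 10466 on Nestin-negative replicates 1, 4 and 5. Both groups overlapped over most of their range, with a log2 change of 0.12 ± 0.17 (SE) and a 95% interval of 0.84-fold to 1.41-fold (limma, adjusted p = 0.796). With the replicate block it was 0.15 ± 0.10 (adjusted p = 0.433), and the pair of replicate 5 differed by -0.01. Without Nestin-negative replicate 1 the sign turned, to -0.06. The other Cdc20 probe sets had log2 changes of 0.16 ± 0.18 and 0.34 ± 0.38 (SE), with overlapping groups. Differences between members were not tested.

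Ube2c encodes the E2 enzyme that places the first ubiquitin on APC/C substrates. It read 6826, 6542, 10246 and 8459 on Nestin-positive replicates 1, 3, 4 and 5, and 4855, 7459 and 7497 on Nestin-negative replicates 1, 4 and 5. Nestin-positive replicates 1 and 3 lay below Nestin-negative replicates 4 and 5. The difference over all arrays was 0.28 ± 0.20 (SE; adjusted p = 0.574). In the blocked fit Ube2c rose by 0.37 ± 0.10 (adjusted p = 0.0209), although without the pair of replicate 1 its adjusted p was 0.0823. The unblocked log2 change was 0.08 without Nestin-negative replicate 1 and 0.16 without Nestin-positive replicate 4.

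**Figure D3:**
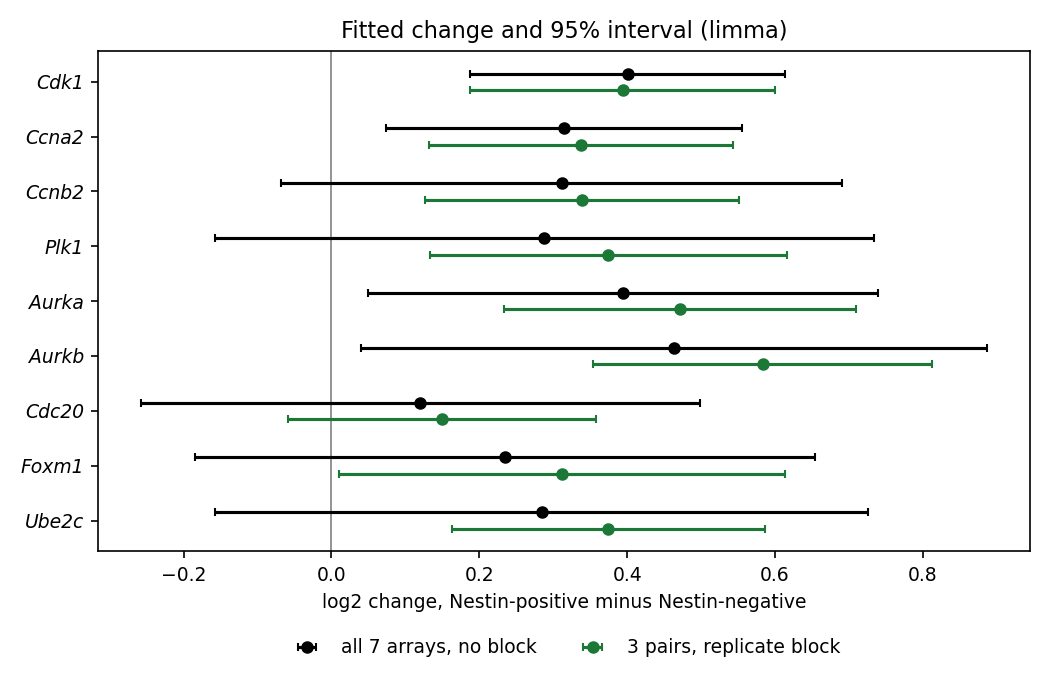
Fitted log2 change (points) with its 95% interval (bars) for each gene, from limma over all 7 arrays (black) and over the 3 same-numbered pairs with the replicate block (green). All points lie above 0, and 4 unblocked intervals exclude 0, those of Cdk1, Ccna2, Aurka and Aurkb.

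Part of the spread within the groups was shared by most members, Foxm1 least. After centring each gene on its mean, the 9 genes averaged 0.36 on Nestin-positive replicate 4 and -0.37 on Nestin-negative replicate 1 (log2). The other 3 Nestin-positive arrays averaged 0.08, -0.04 and 0.14 for replicates 1, 3 and 5, and Nestin-negative replicates 4 and 5 averaged -0.07 and -0.10. Nestin-positive replicate 4 was the highest of all arrays for 7 genes, and Nestin-negative replicate 1 was the lowest for 7. These were also the arrays with the lowest and the highest array median signal, 64.4 and 94.5. Nestin-positive replicate 1, at 93.7, came close to the latter. Whether the array median and the shared spread are linked was not tested. Foxm1 stood at 0.19 on Nestin-negative replicate 1, and on Nestin-positive replicate 1 the genes ran from -0.23 (Cdc20) to 0.42 (Aurka). Within the pairs, 26 of the 27 differences were above 0, the exception being Cdc20 in the pair of replicate 5. For 8 of the 9 genes all 3 pairs were higher in the Nestin-positive sample, against 19% of all genes. The median difference was 0.43 in the pairs of replicates 1 and 4 and 0.22 in the pair of replicate 5. In the pair of replicate 5, 7 genes had their smallest difference. Aurka was smallest in the pair of replicate 4 and Foxm1 in that of replicate 1.

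**Figure D4:**
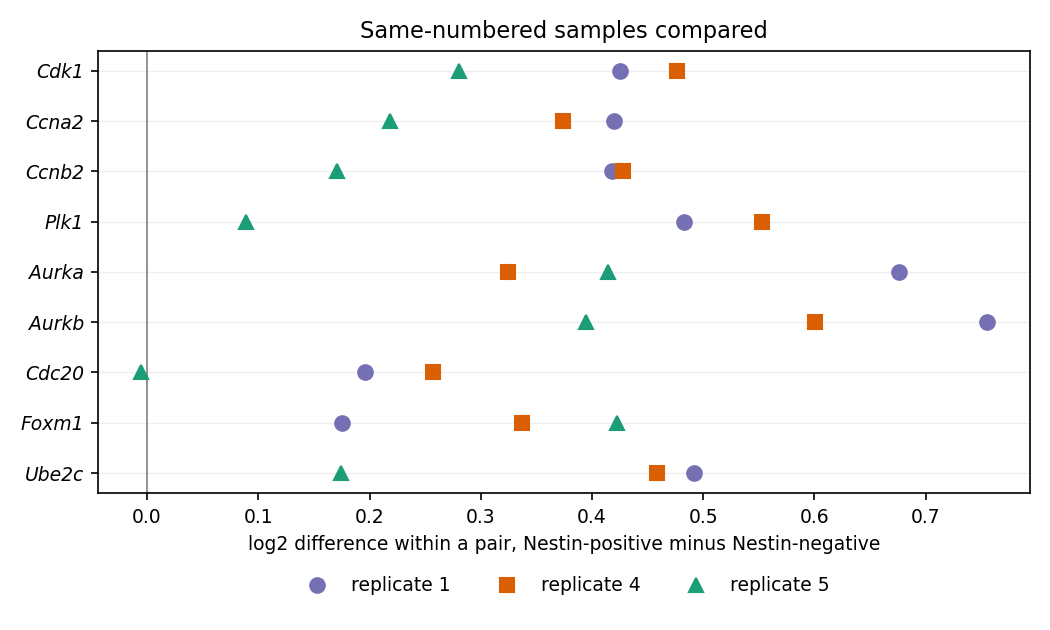
Log2 difference between the Nestin-positive and the Nestin-negative sample of the same replicate number, by gene; circles, squares and triangles are the pairs of replicates 1, 4 and 5. Only Cdc20 in the pair of replicate 5 lies at or below 0 (-0.01), and triangles lie furthest left for 7 of the 9 genes.

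The other genes of the pathway were described from lists chosen with earlier results of these data known. None of the genes in these lists passed without the block. Of 26 regulators and partners of mitotic entry, all measured, 23 had a positive log2 change (median 0.23, range -0.10 to 0.58). With the block 4 rose and 0 fell, where 3.6% of all genes rose. They were Ccnf, an F-box cyclin that controls centrosome duplication (blocked log2 change 0.56 ± 0.15 SE, adjusted p = 0.02), Bora, which lets Aurora A act on Plk1 (0.43 ± 0.12, 0.0315), Tpx2, the spindle activator of Aurora A (0.37 ± 0.11, 0.0322), and Incenp, the scaffold that activates Aurora B (0.32 ± 0.10, 0.0417). Lin9, a MuvB subunit, had a log2 change of 0.58 ± 0.22 (SE) over all arrays and did not pass with the block either (0.40 ± 0.15, adjusted p = 0.0981). Without the pair of replicate 1, 0 genes of this list rose (1.64% of all genes did), and without that of replicate 5, 1 did. The list's median was 0.15 without Nestin-negative replicate 1.

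The APC/C itself and its partners and substrates showed less. Of 21 genes, all measured, 14 had a positive log2 change, with a median of 0.07 and a range of -0.18 to 0.46, and 7 were higher in all 3 pairs (19% of all genes were). Leaving out replicate 4 or 5 of the Nestin-positive group brought the median to 0.0052 or 0.034, and leaving out replicate 1 or 4 of the Nestin-negative group to 0.022 or 0.018. With the block 1 rose and 0 fell, where 3.6% of all genes rose. This was Fbxo5, also called Emi1, an inhibitor of the APC/C before mitosis, whose log2 change was 0.44 ± 0.10 (SE) over all arrays (adjusted p = 0.0934) and 0.42 ± 0.10 with the block (adjusted p = 0.0104). Without the pair of replicate 1, 0 of the 21 rose, and without that of replicate 4 or of replicate 5, 2 did. Cdc27, a scaffold subunit, differed by 0.46 ± 0.17 (SE; adjusted p = 0.256) and by 0.37 ± 0.12 with the block (adjusted p = 0.0645). Gmnn, which encodes the APC/C substrate geminin, differed by 0.28 ± 0.15 (adjusted p = 0.458; with the block 0.28 ± 0.11, adjusted p = 0.114).

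Genes acting later in mitosis, and in other phases, gave the frame for these values. With the block 3.6% of all genes rose. The share was 1.64% without the pair of replicate 1, 5.11% without that of replicate 4 and 2.8% without that of replicate 5. All 17 kinetochore, checkpoint and spindle genes had a log2 change above 0 (median 0.51), and 13 rose with the block (3 without the pair of replicate 1). Bub1, a spindle checkpoint kinase, had a log2 change of 0.62 ± 0.15 (SE) over all arrays (adjusted p = 0.0953) and 0.60 ± 0.12 with the block (adjusted p = 0.0025). Cenpf, a kinetochore protein, differed by 0.72 over all arrays and rose by 0.65 with the block (adjusted p = 0.0012). Bub1b, a checkpoint kinase, differed by 0.48 over all arrays and rose by 0.45 with the block (adjusted p = 0.0073). Of 11 condensin, topoisomerase and Mki67 genes, 10 had positive log2 changes (median 0.42) and 7 rose with the block (2 without the pair of replicate 1). The median was 0.23 without Nestin-negative replicate 1. Among them were Top2a, which untangles sister DNA, and the condensin genes Smc2 and Ncapg. In the blocked fit Top2a rose by 0.49 (adjusted p = 0.0023; 0.49 over all arrays, adjusted p = 0.0692), Smc2 by 0.43 (adjusted p = 0.0118; 0.48 over all arrays, adjusted p = 0.0955) and Ncapg by 0.68 ± 0.14 (SE; adjusted p = 0.0033; 0.78 over all arrays, adjusted p = 0.0955). The group's 21 DNA replication genes had a median of 0.22, which was 0.10 without Nestin-negative replicate 1, and 4 rose with the block (0 without the pair of replicate 1, 2 without that of replicate 5). The 3 with the smallest unblocked p-values were Pola1, a polymerase subunit (0.52 over all arrays; 0.52 with the block, adjusted p = 0.0102), Mcm10, a replication initiation factor (0.36; 0.41 with the block, adjusted p = 0.0177), and Pole (0.38), which did not pass with the block (0.34, adjusted p = 0.0529). Of 11 G1 and S phase cyclins, kinases and E2F genes, 7 had positive log2 changes (median 0.17, and 0.06 or 0.07 when replicate 1 or 4 of the Nestin-positive group was left out, and 0.014 with the mean of probe sets). Cdk6 and Ccnd1 rose with the block by 0.33 ± 0.10 (SE) and 0.34 ± 0.10, but 1 gene rose without the pair of replicate 4 and 0 without that of replicate 5. E2f3, the next by p-value, differed by 0.26 over all arrays. The differences between these lists were not tested.

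**Figure D5:**
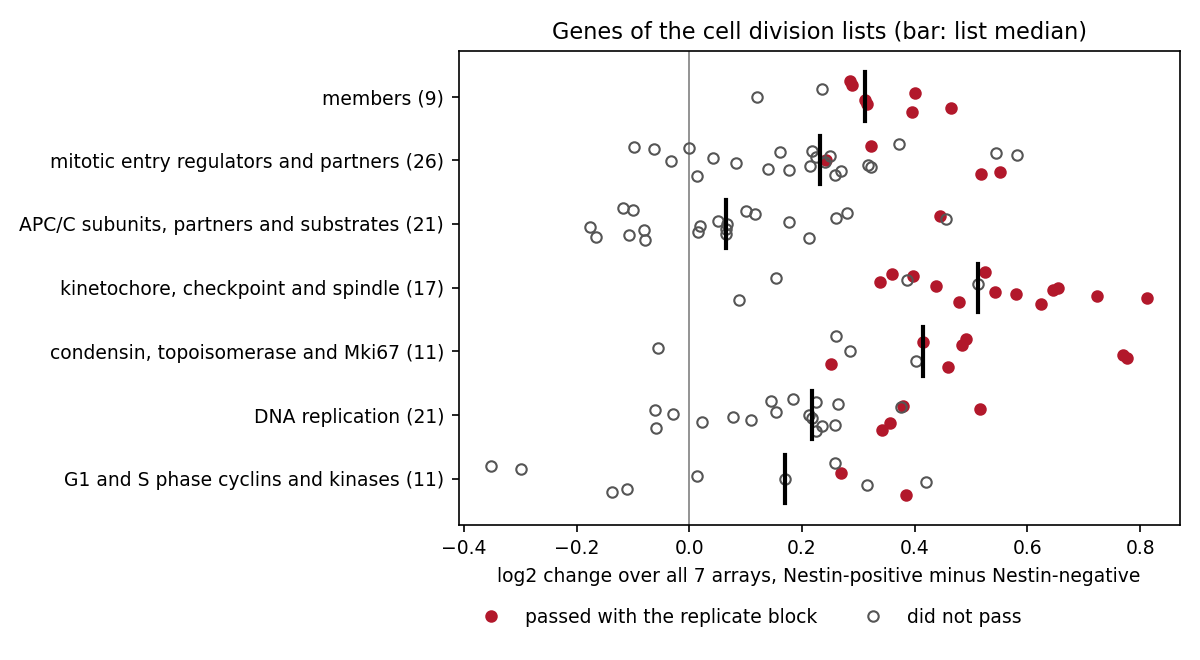
Log2 change over all 7 arrays for each measured gene of the 9 members and 6 further lists (number of genes in brackets); filled points passed limma with the replicate block, open points did not, and bars are list medians. Medians run from 0.07 for the APC/C list to 0.51 for the kinetochore, checkpoint and spindle list.

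The genes whose pattern over the 7 arrays lay nearest to the mean of the members were Taf1, Cdca3, Birc5, Smad3 and Cdc45. Likeness was the root-mean-square difference between centred log2 values, which was 0.0387 for Taf1, 0.0418 for Cdca3, 0.0452 for Birc5, 0.0543 for Smad3 and 0.0615 for Cdc45, against a median of 0.291 over all genes. Among the members themselves it ran from 0.0567 for Ccna2 to 0.286 for Foxm1. Taf1, Cdca3 and Smad3 passed limma only with the block (adjusted p = 0.0373, 0.0251 and 0.0171), and Birc5 and Cdc45 passed in neither fit. These genes were picked from the same data for their likeness to the members. Taf1 encodes a subunit of the general transcription factor TFIID and Smad3 a mediator of TGF-beta signals. Cdca3 is a cell cycle gene, Birc5 encodes survivin of the chromosomal passenger complex, and Cdc45 acts in the replicative helicase.

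The sort and the cell types were read from the same arrays. Nes, the gene behind the reporter, was 3.32-fold higher in Nestin-positive cells (adjusted p = 0.0282), as the sort requires. Of 12 genes listed for granule neuron precursors, 11 had a probe set, and all 11, Atoh1 among them, reached the array median on every array. Their summed signal was 57170 to 68480 in Nestin-positive and 64510 to 67800 in Nestin-negative samples. Over all arrays 5 of the 11 had a positive log2 change, and none passed. With the block Atoh1 and Barhl1 rose by 0.35 and 0.42 (limma, adjusted p = 0.0358 and 0.0137). Eomes fell (-0.62, adjusted p = 0.0195). In that fit 3.6% of all genes rose and 6.52% fell. Whether the listed genes, Eomes included, are particular to precursors was not tested, so these values do not measure precursor identity. Markers of granule neuron differentiation lay opposite to the mitotic genes: all 16 measured had negative log2 changes (median -0.55), 4 fell over all arrays (0.577% of all genes did) and 13 with the block (6.52%). The summed signal of the 17 listed was 56970 to 68970 in Nestin-positive and 81990 to 93150 in Nestin-negative samples, without overlap.

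Markers of several other cell types were also brighter in Nestin-negative cells. The summed signal of 15 microglia and macrophage markers was 494.6 to 1382 in Nestin-positive and 2405 to 8989 in Nestin-negative samples. On the Nestin-positive arrays 0 of the 15 reached the array median throughout, against 9 on the Nestin-negative arrays. For 11 pericyte markers the sums were 664.6 to 2160 against 1466 to 9877, and for 7 meningeal markers 858.8 to 2340 against 1726 to 7498. Both overlapped between the groups but were lower in the Nestin-positive sample of every pair. With the block 8 of 9 measured pericyte genes and all 4 measured meningeal genes fell, as did all 10 measured microglia genes (6.52% of all genes fell). Genes could pass the filter through the 3 Nestin-negative arrays alone, so these counts favour genes high there and add no support. The sums cover every listed gene with a probe set, without the filter. On all Nestin-positive arrays Cspg4 of the pericyte list and Col1a2 and Col3a1 of the meningeal list were at or above the array median. Nestin-negative replicate 1, lowest for most mitotic genes, was also the lowest Nestin-negative array for the sums of the microglia, pericyte and meningeal lists and the highest for that of differentiation. The sums of 7 GABAergic interneuron markers were 2880 to 3676 against 4358 to 5453, with Lhx1 at or above the median on all Nestin-positive arrays. Lhx1 made up most of these sums, with a mean of 3188 in Nestin-positive and 4131 in Nestin-negative samples. Gad1 averaged 42.9 against 367 and Tfap2b 48.0 against 182, both dim in Nestin-positive samples. Only these 3 genes of the list passed the filter. Astrocyte sums (10 markers, 11390 to 31100 against 8665 to 22390) overlapped between the groups, as did those of 9 endothelial markers (344.7 to 2189 against 589.5 to 2214) and of 7 oligodendrocyte markers (5963 to 7757 against 7109 to 8302), the last again lower in the Nestin-positive sample of every pair. All 10 astrocyte markers, Aqp4 and Gfap included, and Pdgfra, Olig1, Olig2, Mbp and Cnp lay at or above the median on all Nestin-positive arrays. The astrocyte genes did not move together. With the block Slc1a2 and Gdf10 rose by 0.52 and 0.70 (limma, adjusted p = 0.0018 and 0.0029). Aqp4, Aldoc and Fabp7 fell (-1.69, -0.86 and -0.65, adjusted p = 1.3e-07, 0.0029 and 0.0015), and the others did not pass. Nor did the oligodendrocyte genes move together. With the block Olig1 and Olig2 rose by 0.38 and 0.68 (limma, adjusted p = 0.0325 and 0.0016). Cnp fell (-1.09, adjusted p = 1.6e-05), and Pdgfra and Mbp did not pass. In that fit 3.6% of all genes rose and 6.52% fell. The part of these cells in the differences of the mitotic genes was not tested. RNA quality, read as the 3' to 5' ratio of the control probe sets, was 1.69 to 1.99 for beta-actin and 1.09 to 1.38 for Gapdh over the 7 arrays.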

How the data were processed

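Biotin-labelled cRNA from total RNA of sorted cells was measured on Affymetrix Mouse Genome 430 2.0 arrays (per the labels). The submitters' processing notes name MAS5, without a version, and the values the authors deposited are linear intensity. After trimming 2% at each end, the mean deposited intensity was 500 on all 7 arrays. Array medians ran from 64.4 to 94.5.

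Samples were grouped by title. Log2 of the intensity was taken without a pseudocount. Of 45101 probe sets, 64 controls were left out, and 34945 had 1 gene, 932 several and 9160 none. Symbols were updated by Entrez ID through RefSeq (34741 matched). Probe sets that reached the array median on 3 or more arrays were kept (23585, of which 20162 had 1 gene), and the brightest stood for its gene (11089 genes). MAS5 subtracts mismatch signal, which makes dim values noisy.

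The group difference was fitted by limma 3.58.1 (R 4.3.3; intensity trend, two-sided, Benjamini-Hochberg over all genes, threshold 0.05) without covariates, after tests on simulated data. Same-numbered samples deviated together from their group means (r = 0.71, 0.39 and 0.47 across genes for replicates 1, 4 and 5; other pairs -0.60 to 0.19), so the numbers were taken to pair the samples, from these data and not from the labels. The blocked fit uses 3 pairs and has 2 residual degrees of freedom (20.2 after moderation), so its standard errors come mainly from spread shared across genes. Where the block changed the call of a member, a nearest gene or a named gene of the cell division lists, the blocked result stands beside it. For cell type markers it is given for some genes only.

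The members and lists were chosen with earlier results of these data known. Named genes are the members, the 3 genes of each cell division list with the smallest p-value, pathway genes called with the block, the 5 nearest genes, Nes, and markers that reached the median of every Nestin-positive array. Sequences are from RefSeq, GRCm38.p6. No genome build is named for the arrays, and no gene coordinates are given.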

Additional observations from a re-analysis of the deposited data

Results flagged for a closer look

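The dimmest probe set of Cdc20 had a lone low array in the Nestin-positive group. It read 375 on replicate 1 and 714, 748 and 791 on replicates 3, 4 and 5, and the gap below the other arrays was 0.864 of the group's range on the log2 scale, above Dixon's 95% critical value for 4 samples. The Nestin-negative sample of the same number was low as well (267, against 696 and 664 on replicates 4 and 5). The brightest Cdc20 probe set did not pass this limit. Among the 16 member probe sets examined it was the only such case, and chance alone gives such a gap in about 1 in 20 groups.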

How the results depend on the processing

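Without a replicate block, no setting tried called a member or a member probe set in either direction: quantile normalization, a common array median, a pseudocount of 16, dim values raised to the array median, no filter, a filter on all 7 arrays, the mean of probe sets, no intensity trend, and each array left out. Counts of calls among members therefore turn on the block. With the replicate block 7 rose (3.6% of all genes), and with the replicate number as a random block 4 (2.62%). With each pair left out of the blocked fit it was 2 to 5 (1.64% to 5.11% of all genes). Member probe sets called were 6 with the replicate block (1.53% of all 20162), 2 with the random block and 2 to 5 with each pair left out. The share over all probe sets was not computed for the random block or with pairs left out. In settings added after seeing the data, the replicate block called 6 members with quantile normalization, Plk1 not among them. With a common array median it called 4, which were Cdk1, Aurka, Aurkb and Ube2c. It called 5 with the mean of probe sets and 7 with a pseudocount of 16. Over all 11089 genes these settings called 818, 1073, 968 and 1171 in either direction. Of those calls 32.9%, 34.2%, 33.4% and 35.4% were higher. The median log2 change of members stayed positive, at 0.22 to 0.39 with each array left out and 0.32 to 0.45 with each pair left out. Of 216 comparisons of a single member with its value over all arrays, 170 kept direction and call, 45 gained the call and 1 turned sign, Cdc20 without Nestin-negative replicate 1 (range with each array left out -0.0569 to 0.24); the cause was not tested.

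Over all genes, 19 were called higher, 64 lower. The replicate block gave 399 and 723, with the random block 290 and 564, with quantile normalization 9 and 13, with a common array median 0 and 0 (1149 at an unadjusted p under 0.05 by limma). Without the intensity trend they were 0 and 0 (1573 unadjusted). Lower calls alone were 39 without the filter, 29 with the mean of probe sets and 98 with dim values raised. With each array left out, 0 to 17 were higher and 0 to 80 lower; with the pair of replicate 1, 4 or 5 left out of the blocked fit, 182, 567 or 311 and 546, 886 or 598. The share of higher calls was 22.9% over all arrays, 35.6% with the replicate block and 40.9% with quantile normalization. All kept member probe sets lay at or above the array median on every array. In the fit over probe sets their widest standard errors were 0.38 for the dimmest Cdc20 probe set and 0.35 for the dimmer Aurka one.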

Other observations

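E2f1 and E2f2, transcription factors that open S phase, went against the direction of the mitotic genes; both were chosen after their values were seen. E2f1 read 793, 1045, 1193 and 1120 on Nestin-positive replicates 1, 3, 4 and 5, and 1223, 1290 and 1275 on Nestin-negative replicates 1, 4 and 5. No overlap was seen, which 9.11% of all genes showed in this direction. The log2 change was -0.30 ± 0.15 (SE; limma, adjusted p = 0.416; with the replicate block -0.31 ± 0.12, adjusted p = 0.117). E2f2 read 723, 512, 821 and 772 against 802, 924 and 945, lower in all 3 pairs, with a log2 change of -0.35 ± 0.17 (SE; adjusted p = 0.405).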
